A study of Arabidopsis thaliana with 35 samples.

Results

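The WRKY family is a group of plant transcription factors, and 39 of its genes, listed by locus identifier, were followed as a module and singly through the shoot apex of Arabidopsis thaliana. They were taken from a table of 28775 genes, and the reference annotation names 33 further WRKY genes, used for comparison. The members were chosen with earlier results of these data known. Of the 39 members, 37 passed edgeR's filter on low counts. WRKY55 and WRKY59 did not and are given as counts per 1000000 counted reads (CPM) only. Plants were 14 days old and were either wild type (WT, Col-0) or the double mutant clf-29 swn-3 (clf swn, cs), which carries T-DNA insertions in CLF and SWN, encoding the catalytic subunits of Polycomb Repressive Complex 2 (PRC2). The mutant seedlings were picked from the progeny of plants heterozygous for clf and homozygous for swn. Regions of the shoot apical and axillary meristems, freed of cotyledons, true leaves and roots, were collected untreated (ctrl; 5 WT and 6 cs libraries) or 55 h after the start of a treatment with 3 libraries per group. The treatments were mock with the solvent DMSO (M), 5 µM of the synthetic auxin 2,4-D (A), wounding by a cut through the upper hypocotyl (W), and both together (WA). The comparisons ask how the 39 members responded to treatments used to induce somatic embryos and whether the response differed when PRC2 was depleted.

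WRKY proteins bind DNA through a domain that carries the conserved amino acids WRKY beside a zinc finger. Their usual target is the W-box, a short element with the core TTGAC, and many WRKY promoters hold W-boxes themselves, so that the family is known for regulating its own members. The family is divided into group I with a pair of WRKY domains, groups IIa to IIe, and group III with another form of the zinc finger. Most of the well studied members act in immunity, in salicylic acid and jasmonate signalling or in leaf senescence, and a few act in development or phosphate nutrition. PRC2 places the repressive mark H3K27me3 on genes, which was not measured in these libraries.

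The 250 bases before the annotated start are shown for 4 members whose values differ most in kind: WRKY62 (AT5G01900) and WRKY70 (AT3G56400), which rose with 2,4-D in WT, WRKY23 (AT2G47260), which rose in both genotypes, and WRKY29 (AT4G23550), which fell in WT and rose in cs. Sequences are from the RefSeq annotation of TAIR10.1 and run 5′ to 3′ on the strand of the gene. Capitals mark TTGAC or its reverse complement GTCAA.
WRKY62 promoter (chr5:352096-352345, minus strand): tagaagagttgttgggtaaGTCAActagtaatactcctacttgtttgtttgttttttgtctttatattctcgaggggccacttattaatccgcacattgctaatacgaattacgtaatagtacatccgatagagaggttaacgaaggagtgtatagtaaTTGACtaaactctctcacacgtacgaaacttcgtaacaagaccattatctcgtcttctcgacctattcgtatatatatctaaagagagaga
WRKY70 promoter (chr3:20910624-20910873, minus strand): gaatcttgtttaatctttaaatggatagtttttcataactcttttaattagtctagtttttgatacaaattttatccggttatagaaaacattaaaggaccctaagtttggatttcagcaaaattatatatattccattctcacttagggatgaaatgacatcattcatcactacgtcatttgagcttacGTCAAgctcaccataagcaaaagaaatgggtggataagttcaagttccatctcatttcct
WRKY23 promoter (chr2:19407099-19407348, minus strand): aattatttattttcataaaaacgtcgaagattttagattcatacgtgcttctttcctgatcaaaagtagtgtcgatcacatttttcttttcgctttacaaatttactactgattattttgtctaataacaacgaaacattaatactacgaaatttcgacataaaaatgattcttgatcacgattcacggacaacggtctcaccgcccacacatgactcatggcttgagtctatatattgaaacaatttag
WRKY29 promoter (chr4:12291382-12291631, plus strand): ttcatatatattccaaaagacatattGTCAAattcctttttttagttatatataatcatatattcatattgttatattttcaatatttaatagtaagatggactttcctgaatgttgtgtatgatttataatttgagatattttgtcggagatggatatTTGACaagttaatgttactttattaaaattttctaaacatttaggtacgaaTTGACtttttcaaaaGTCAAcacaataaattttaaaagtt
TTGAC on either strand was searched in the window from 250 bases before to 50 bases after the start. It was found in 28 of 39 members (71.8%) and in 50.5% of 27443 protein-coding genes, and 14 members (35.9%) held it at least 2 times against 17.7% of those genes. Among the 33 other WRKY genes 16 (48.5%) held it. The longer forms TTGACC and TTGACT, which contain TTGAC, were found in 8 (20.5%) and 12 (30.8%) members, beside 14.2% and 21.8% of all promoters. Of the letters that auxin response factors are known to bind, TGTCTC was present in 8 members (20.5%, against 14.2% of all promoters) and TGTCGG in 1 (2.56%, against 5.12%). CACGTG, the G-box, was present in 5 members (12.8%, against 7.68%). WRKY62, WRKY70 and WRKY29 hold 2, 1 and 4 of the TTGAC letters, and the window of WRKY23 holds none. These are matches of letters and not sites shown to be bound.

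The 35 libraries held 11375703 to 18094983 counted reads, so that 3 counts, the floor used for low genes, correspond to 0.166 to 0.264 CPM. CLF was at 29.5 to 55.6 CPM in the 17 WT libraries and at 0.775 to 1.92 CPM in the 18 cs libraries, and SWN at 39.6 to 68.7 and 18.7 to 33.3 CPM, so that each library's CLF level fitted its genotype label. Markers of other tissues moved with the groups. The summed CPM of 4 leaf mesophyll genes (RBCS1A, LHCB1.1, LHCB2.1, CA1) was 5461 to 6609 in WT-M, 597 to 853 in WT-A and 417 to 534 in WT-WA, against 3554 to 4371, 2845 to 4421 and 2341 to 3244 in the same cs groups. That of 5 root genes (COBL9, EXPA7, PRP3, CASP1, WOX5) was 2.93 to 3.45 in WT-M, 28.0 to 30.5 in WT-A and 47.8 to 68.4 in WT-WA, and 2.89 to 3.84, 8.56 to 11.4 and 39.6 to 51.0 in cs. CASP1 was at 0 in every library of all 4 of the 2,4-D groups. Most of the root sum in WT with 2,4-D was WOX5, with 415, 456 and 412 counts in WT-A and 928, 1029 and 715 in WT-WA. COBL9, EXPA7 and PRP3 held 0 to 4 counts per library in WT-A, 1 to 27 in WT-WA and 39 to 194 in cs-WA. The 5 shoot meristem genes (STM, KNAT1, CLV3, CLV1, WUS) summed to 171 to 238 CPM in WT-M, 202 to 209 in WT-A and 121 to 143 in WT-WA. In cs they summed to 306 to 366 in mock and 273 to 302 in cs-WA. CLV3 and WUS were at 0 in WT-WA, and CLV1 had 709, 904 and 976 counts in WT-M and 109, 116 and 129 in WT-WA. STM had 890, 1241 and 1305 counts in WT-M and 989, 1332 and 1127 in WT-WA, and KNAT1 804, 937 and 1150 and then 740, 742 and 915. The part of these shifts in the WRKY values was not tested, and in bulk tissue fewer cells of a type and less RNA per cell cannot be told apart.

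As a module the 39 members were most abundant in WT apexes treated with 2,4-D. The summed CPM of the 39 members was 400, 496 and 463 in the WT-M libraries, 1098, 1165 and 928 in WT-A and 1413, 1273 and 1135 in WT-WA. In cs the sums were 230, 449 and 288 in mock, 351, 362 and 287 in 2,4-D and 518, 368 and 397 in the combined treatment. Every WT library with 2,4-D lay above every other library of both genotypes, whereas the cs groups with 2,4-D overlapped cs-M. Of the 37 members tested, 22 had their highest group mean in WT-WA and 20 their lowest in cs-ctrl. The shares of all genes with these patterns were not computed. All 39 members had at least 1 count in each WT-WA library, and 32 or 33 in each cs-M library. Per kilobase of exon the order of members changed with treatment. WRKY15 led in WT-M with 49.9 CPM per kb (18.0% of the members' sum), whereas WRKY23 with 136 and WRKY70 with 124 CPM per kb led in WT-WA (16.2% and 14.7%). In cs-WA WRKY15 led again (41.7 CPM per kb), before WRKY23 (38.3).

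**Figure D1:**
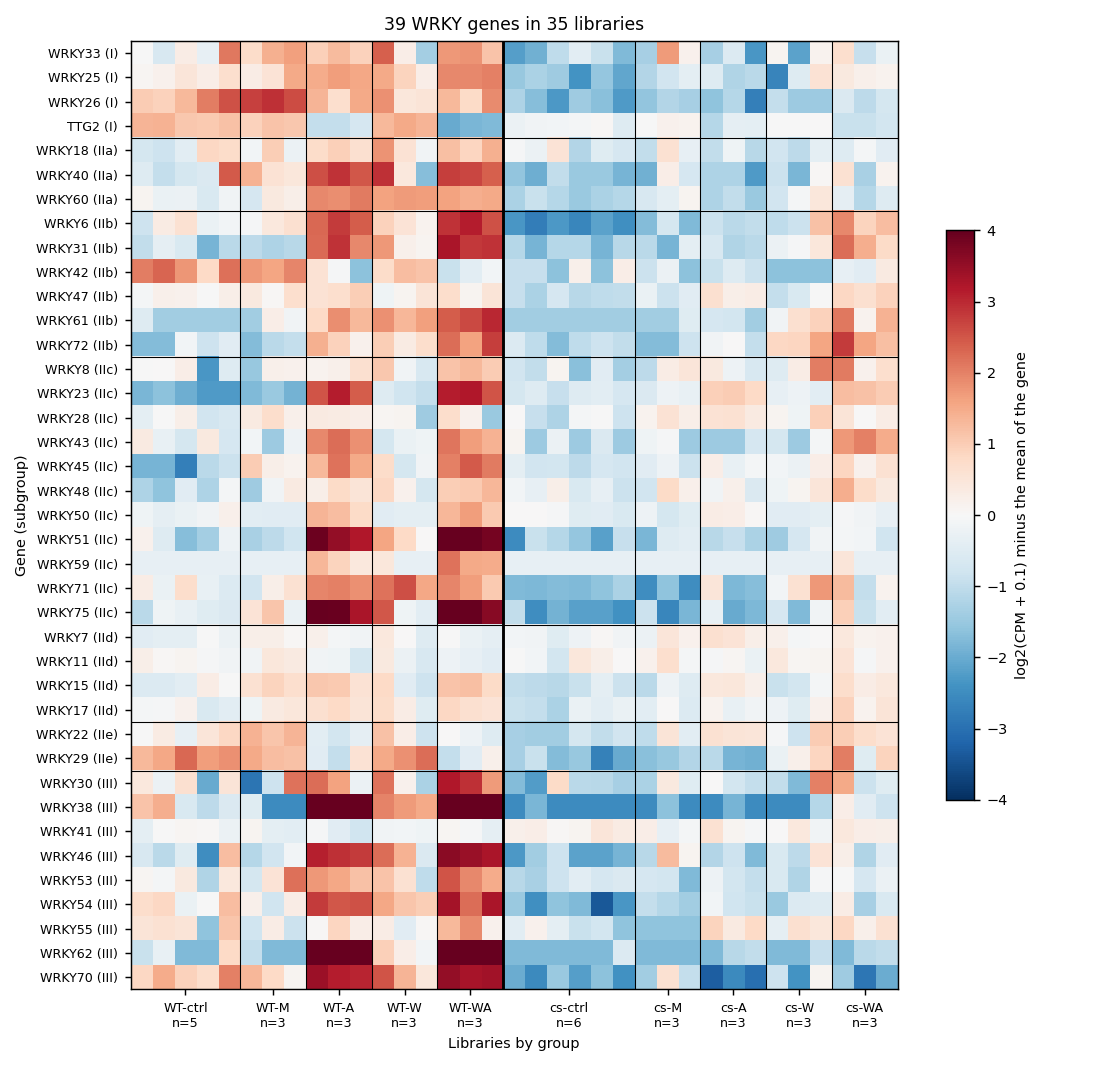
Heatmap of the 39 members (rows, by subgroup) in the 35 libraries (columns, by group), as log2(CPM + 0.1) minus the mean of the gene over all libraries, with values beyond the colour bar drawn at its ends. WRKY38, WRKY46, WRKY54, WRKY62 and WRKY70 of group III and WRKY23, WRKY45, WRKY50, WRKY51 and WRKY75 of group IIc have all 3 WT-A and 3 WT-WA libraries above all others, and the sums of CPM there (928 to 1413) exceed those of every other library.

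A few libraries stood apart within their group. In WT-W replicate 1 27 of 37 members were at their highest of the group and the sum was 825 CPM, against 434 and 294 in replicates 2 and 3. In cs-M replicate 2 22 members were highest (sum 449 CPM), and in untreated WT C1 replicate 2 14 members were highest (sum 514 CPM, the other 4 libraries 300 to 333). In cs-W replicate 3 and cs-WA replicate 1 31 members each were highest, with sums of 368 and 518 CPM. WRKY33, which is required for resistance to necrotrophic fungi and for synthesis of the antimicrobial camalexin, varied most plainly. It had 22.4, 14.3, 27.6, 17.8 and 97.9 CPM in WT-ctrl, 119, 27.4 and 8.67 in WT-W, and 8.95, 73.2 and 25.6 in cs-M. With this spread WRKY33 was not called against mock in any treatment of either genotype (WT-A log2 fold change -0.26 ± 0.74 SE, adjusted p = 0.78 in the edgeR quasi-likelihood fit, adjusted after Benjamini and Hochberg over all genes tested, like every adjusted p below).

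A member was called higher or lower when its adjusted p over all 21115 genes tested was under 0.05 and every library of one group lay at least 0.6 on the log2 CPM scale above every library of the other. With 2,4-D alone, 17 of 37 members (45.9%) were called higher and 5 (13.5%) lower in WT, where 13.4% and 13.9% of all genes were called. Their median log2 fold change was 0.77 against 0.00 over all genes. WRKY31, WRKY38, WRKY43, WRKY61, WRKY62 and WRKY72 held 1 to 6 counts each over the WT-M libraries. They passed the filter on low counts through groups in which they were high, so their part in these counts is in part set by the filter. The same filter was applied to all genes, and counts with a stricter filter are given at the end. With wounding and 2,4-D 18 members (48.6%) were higher and 5 (13.5%) lower in WT, beside 16.3% and 17.9% of all genes, with a median of 1.46. In cs 2,4-D alone gave 1 member higher (WRKY23) and 1 lower (WRKY70), beside 3.32% and 3.03% of all genes, and the combined treatment 9 higher (24.3%) and 1 lower (2.70%), beside 7.46% and 3.20%. Without cs-M replicate 1, 6 members in place of 2 were called for 2,4-D alone in cs. The calls in WT with 2,4-D covered 5 of the 8 group III members tested and 6 of the 10 in group IIc, but none of the 4 in group IId. In group IIb WRKY6, WRKY31, WRKY61 and WRKY72 were called higher and WRKY42 lower, and WRKY47 was not called. WRKY40 and WRKY60 of group IIa were called higher. WRKY22 and WRKY29 of group IIe and TTG2 and WRKY26 of group I were called lower.

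**Figure D2:**
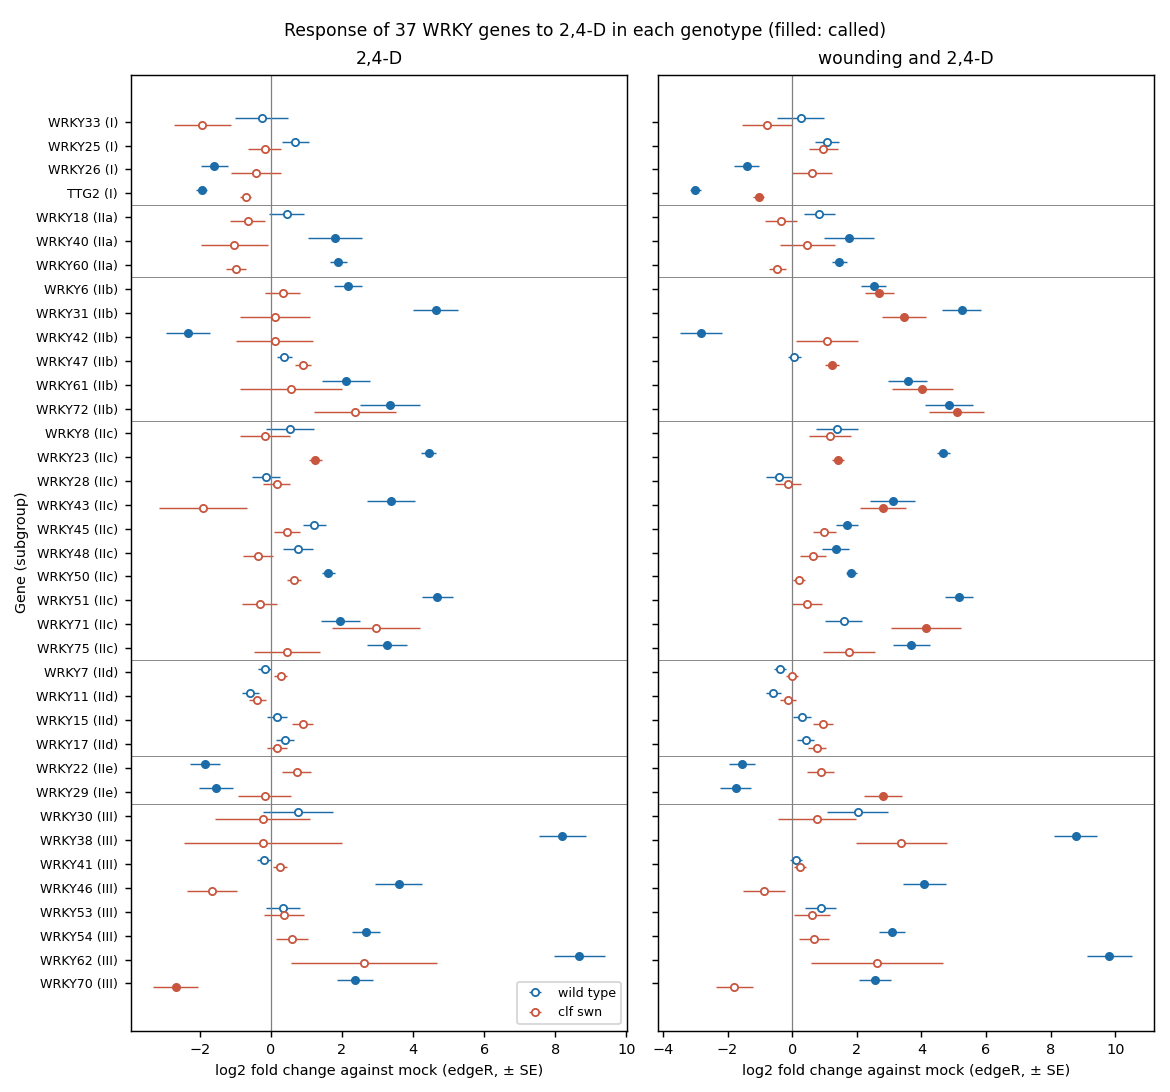
Log2 fold change against mock (x axis, edgeR, ± SE) of the 37 members tested, by subgroup, after 2,4-D (left) and after wounding and 2,4-D (right), in wild type (blue) and clf swn (red), filled where called. In the left panel 22 wild-type and 2 clf swn points are filled, in the right panel 23 and 10. Fold changes against groups with few counts (WRKY38, WRKY62, WRKY31, WRKY72 and others) depend on the fit and are given as ratios of counts in the text.

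Group III holds the members with the largest rises, several of them tied to salicylic acid. WRKY70, a node between salicylic acid and jasmonate signalling and a brake on senescence, had 43.6, 30.2 and 18.6 CPM in WT-M, 184, 153 and 143 in WT-A and 198, 170 and 178 in WT-WA. In cs it had 6.47, 26.4 and 8.83 CPM in mock, 1.69, 2.85 and 2.03 in 2,4-D and 6.37, 2.23 and 4.31 in the combined treatment. The WT groups with 2,4-D lay above all others, and in cs-A every library lay below every mock library. The log2 fold changes were 2.37 ± 0.50 (adjusted p = 0.00017) in WT-A, 2.56 ± 0.50 (adjusted p = 5.6e-05) in WT-WA and -2.68 ± 0.63 (adjusted p = 0.0022) in cs-A. The cs-A call rested on cs-M replicate 2, without which the fold change was -1.79 and the adjusted p 0.052. For WRKY70 the response in cs minus that in WT was -5.05 ± 0.80 (adjusted p = 7.3e-06) for 2,4-D and -4.34 ± 0.76 (adjusted p = 3.2e-05) for both treatments. Its nearest relative WRKY54, which shares its roles in senescence and salicylic acid signalling, had 5.17, 2.54 and 5.52 CPM in WT-M, 31.6, 25.6 and 26.8 in WT-A, and 45.7, 21.6 and 44.1 in WT-WA, whereas the 9 libraries of cs-M, cs-A and cs-WA lay between 1.66 and 5.48 CPM. The WRKY54 libraries separated from mock in both WT groups. In cs the 3 cs-A libraries (4.12, 2.56 and 2.39 CPM) lay just above those of cs-M (2.27, 1.97 and 1.66) without a call (0.59 ± 0.46, adjusted p = 0.39), and cs-WA overlapped cs-M (WT-WA log2 fold change 3.09 ± 0.39, adjusted p = 7.4e-08; interaction for both treatments -2.41 ± 0.60, adjusted p = 0.0017).

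WRKY38 and WRKY62, a pair of related genes known as negative regulators of basal defence, went from almost no reads to 10.5 CPM or more. WRKY38 had 0.309, 0 and 0 CPM in WT-M, 35.1, 25.5 and 25.9 in WT-A, and 51.0, 20.5 and 55.8 in WT-WA. WRKY62 had 0.0772, 0 and 0 CPM in WT-M, 15.5, 10.5 and 11.8 in WT-A, and 33.1, 16.7 and 33.3 in WT-WA. In the 18 cs libraries WRKY38 did not exceed 0.592 CPM and WRKY62 did not exceed 0.135 CPM, so neither gene came near its WT level with 2,4-D in any cs library. As ratios of summed counts WRKY38 was 485-fold higher in WT-WA than in WT-M (1991 against 4 counts, 95% interval from counting 189 to 1783) and WRKY62 1264-fold higher (1296 against 1 count, interval 226 to 49959). Between genotypes WRKY38 differed in 2,4-D by a ratio of 1305 (1258 against 1 count, interval 234 to 51582), and WRKY62 in the combined treatment by 591 (1296 against 2 counts, interval 163 to 4889). All 4 differences were called (largest adjusted p = 5.6e-12). The interaction was not called for WRKY38 (adjusted p = 0.096 for 2,4-D and 0.22 for both) or WRKY62 (0.98 and 0.99), and the mock libraries of cs held 1 read of WRKY38 and 0 of WRKY62 in all.

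WRKY46, which acts in salicylic acid and drought responses, had 2.16, 2.82 and 4.49 CPM in WT-M, 43.2, 37.4 and 34.1 in WT-A, and 60.8, 54.3 and 47.3 in WT-WA. In cs the values were 2.20, 11.8 and 5.25 CPM in mock, 2.09, 2.67 and 1.38 in 2,4-D, and 5.70, 2.04 and 3.49 in the combined treatment. WRKY46 rose in both WT treatments with no overlap (log2 fold change 3.59 ± 0.65, adjusted p = 2.6e-05, and 4.09 ± 0.66, adjusted p = 3.5e-06) and was not called in cs, and the interactions were -5.24 ± 0.95 (adjusted p = 4.7e-05) and -4.96 ± 0.92 (adjusted p = 6.7e-05). The remaining members of group III did not pass against mock. WRKY53, a promoter of senescence, had 3.40, 8.23 and 26.2 CPM in WT-M, a range that overlapped WT-WA (32.5, 21.7 and 15.7). WRKY30, an early gene of stress responses, ranged from 0 to 3.31 CPM in WT-M and from 2.35 to 6.85 in WT-WA (adjusted p = 0.061), and WRKY41, which is known from seed dormancy, stayed between 4.21 and 11.3 CPM in all 35 libraries. Exon bases of WRKY41 and WRKY53 are overlapped over 41.68% and 20.54% of their length by 3xHMG-box1 and 3xHMG-box2 on the opposite strand (22.5 to 61.4 and 95.0 to 271 CPM), and without a stated strand setting reads of these neighbours cannot be told apart from theirs. WRKY55, which lies next to WRKY54 on chromosome 2, had at most 1.04 CPM.

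**Figure D3:**
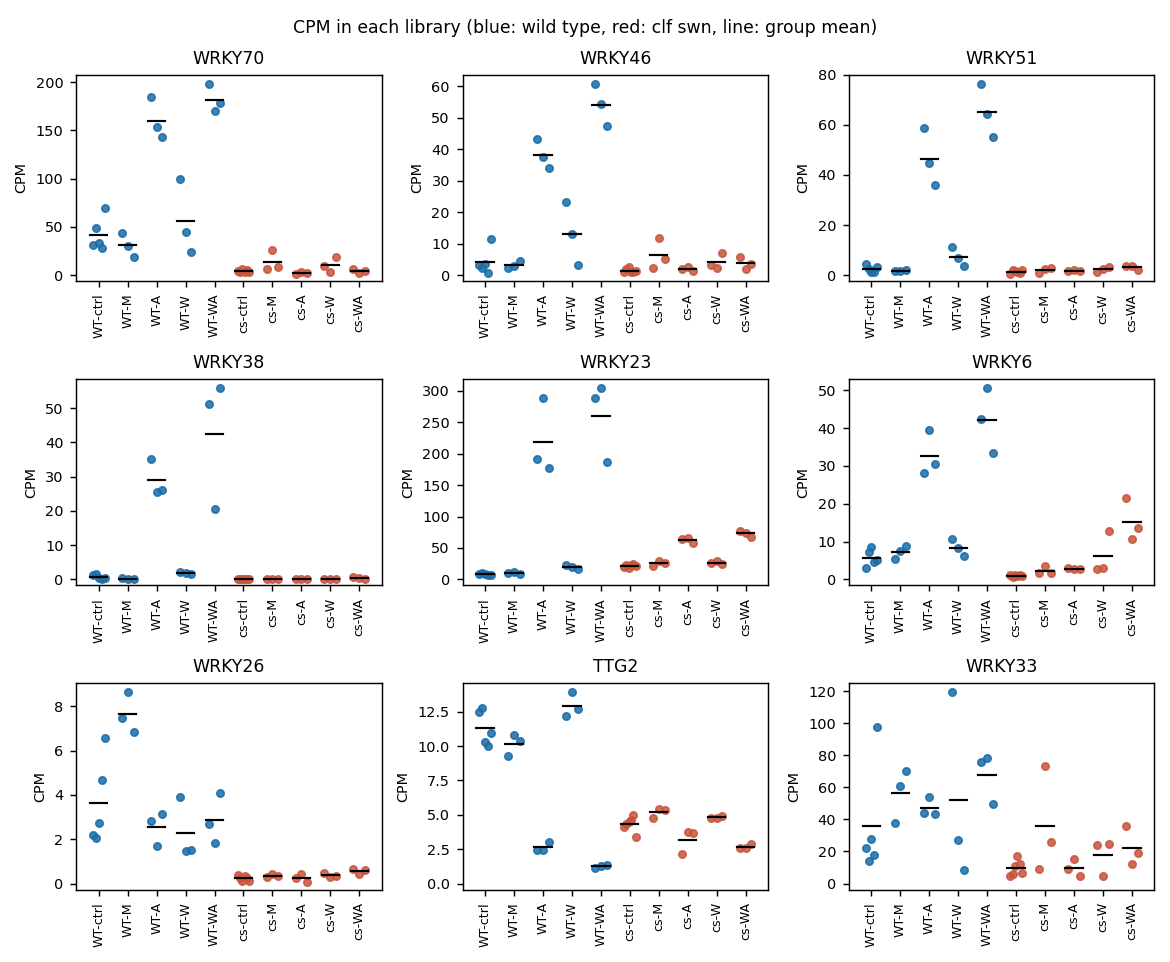
CPM (y axis, linear) of 9 members in each of the 35 libraries, by group (x axis), with wild type in blue, clf swn in red and the group mean as a line. WRKY70, WRKY46, WRKY51 and WRKY38 are high in the 6 wild-type libraries with 2,4-D only, WRKY23 and WRKY6 also rise in clf swn, WRKY26 is at most 0.666 CPM in every clf swn library, TTG2 falls with 2,4-D, and WRKY33 scatters within groups.

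Group IIc is the most mixed. WRKY51 and WRKY50, close relatives that link salicylic acid to the repression of jasmonate signalling, both rose in WT. WRKY51 had 1.47, 1.77 and 2.14 CPM in WT-M, 58.7, 44.7 and 35.8 in WT-A, and 76.2, 64.2 and 55.2 in WT-WA, and did not exceed 3.55 CPM in any cs library. WRKY50 had 4.25, 4.20 and 4.14 CPM in WT-M, 15.0, 13.7 and 9.91 in WT-A, and 14.7, 18.5 and 11.9 in WT-WA, whereas the 18 cs libraries lay between 3.53 and 7.15. For both genes all 6 WT libraries with 2,4-D exceeded all cs libraries and all other WT libraries. The log2 fold changes in WT-WA were 5.17 ± 0.43 (adjusted p = 1.6e-11) for WRKY51 and 1.83 ± 0.18 (adjusted p = 6.5e-10) for WRKY50. Both interactions were called in either treatment (for both treatments together -4.70 ± 0.63, adjusted p = 6e-07, and -1.63 ± 0.26, adjusted p = 9.6e-06). WRKY59 was at 0 in all WT-ctrl and WT-M libraries and had 0.216, 0.132 and 0.0679 CPM in WT-A and 0.461, 0.261 and 0.247 in WT-WA. Its 15 counts over WT-WA against 0 in WT-M made it at least 1.6-fold higher (floor of 3 counts per library), and cs held 1 count in a single cs-WA library.

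WRKY75, which acts in phosphate starvation, root hairs and senescence, had 2.24, 3.37 and 1.24 CPM in WT-M, 26.9, 25.1 and 15.5 in WT-A, and 37.3, 33.7 and 19.8 in WT-WA. In cs it had 0.782, 0.164 and 0.350 CPM in mock, 1.21, 0.297 and 0.362 in 2,4-D, and 3.03, 0.766 and 1.12 in the combined treatment. WRKY75 rose in WT and was not called in cs (WT-WA log2 fold change 3.69 ± 0.56, adjusted p = 1.5e-06), and the genotype by 2,4-D interaction (-2.82 ± 1.13, adjusted p = 0.042) lost its call without any 1 of 8 libraries (adjusted p up to 0.31, without cs-M replicate 1). WRKY45, an activator of phosphate uptake, had 8.57, 5.03 and 4.69 CPM in WT-M and 17.6, 23.6 and 18.2 in WT-WA (1.70 ± 0.33, adjusted p = 4.6e-05). It was also the sole member called between WT-M and WT-ctrl (1.09, 1.1, 0.545, 1.93 and 2.26 CPM untreated; 2.12 ± 0.33, adjusted p = 0.00041), where 0.218% of genes were called higher and 0.208% lower. With only those 2 groups in the fit that adjusted p was 0.059, and without WT-M replicate 1 or WT-ctrl C1 replicate 1 2 members were called. Between cs-M and cs-ctrl edgeR and DESeq2 called 0 members, with 11 higher at an unadjusted p under 0.05, beside 0.114% of all genes called higher and 0.0189% called lower.

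WRKY23, an auxin-responsive gene of root and embryo development, had the highest mean CPM of the members in all 4 groups with 2,4-D and differed from the others in its pattern. It had 9.57, 11.8 and 8.76 CPM in WT-M, 191, 289 and 178 in WT-A, and 289, 304 and 187 in WT-WA. In cs it had 21.8, 28.8 and 26.8 CPM in mock, 63.6, 66.3 and 57.3 in 2,4-D, and 77.6, 74.5 and 67.3 in the combined treatment. WRKY23 thus rose without overlap in both genotypes, from a higher level in cs mock to a lower level in cs with 2,4-D. The log2 fold changes were 4.68 ± 0.21 (adjusted p = 3.4e-17) in WT-WA and 1.42 ± 0.18 (adjusted p = 6.9e-07) in cs-WA, and the interaction was -3.26 ± 0.26 (adjusted p = 9.3e-11). In cs WRKY23 was called higher in untreated (1.36 ± 0.15, adjusted p = 4.5e-09) and mock apexes (1.39 ± 0.19, adjusted p = 7.6e-07) and lower in 2,4-D (-1.79 ± 0.18, adjusted p = 8.6e-10) and in the combined treatment (-1.86 ± 0.18, adjusted p = 4.8e-10).

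Several low members of group IIc and IIb rose in both genotypes after the combined treatment. Of the 18 members called higher in WT-WA and the 9 in cs-WA, 6 were shared (WRKY6, WRKY31, WRKY61, WRKY72, WRKY23 and WRKY43), which is 33.3% of the WT and 66.7% of the cs calls. The overlap of the calls over all genes was not computed, so these shares cannot be set against it. WRKY6, a regulator of senescence and phosphate transport, had 5.48, 7.52 and 8.83 CPM in WT-M, 28.1, 39.4 and 30.6 in WT-A and 42.4, 50.6 and 33.5 in WT-WA, and 1.63, 3.45 and 1.57 CPM in cs-M, 3.04, 2.61 and 2.83 in cs-A and 21.6, 10.5 and 13.5 in cs-WA. In WT 2,4-D alone separated WRKY6 from mock, whereas in cs only the combined treatment did. Its log2 fold change was 2.52 ± 0.39 (adjusted p = 2.2e-06) in WT-WA and 2.69 ± 0.45 (adjusted p = 2.8e-05) in cs-WA, with a difference of 0.17 ± 0.58 (adjusted p = 0.84). For 2,4-D alone WRKY6 differed between genotypes by -1.84 ± 0.62 (adjusted p = 0.018), a call lost without cs-M replicate 2 (-1.36, adjusted p = 0.12).

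WRKY31, a close relative of WRKY6, had 0.0772, 0.0553 and 0.0690 CPM in WT-M and 3.42, 2.48 and 2.60 in WT-WA, and 0.0711, 0 and 0.175 CPM in cs-M and 1.63, 0.894 and 0.520 in cs-WA. As ratios of counts WRKY31 was 42.9-fold higher in WT-WA (132 against 3 counts, interval 14.4 to 211) and 12.7-fold higher in cs-WA (43 against 3, interval 4.06 to 63.8). WRKY72, known from basal immunity, was 34.6-fold higher in WT-WA (71 against 2 counts, interval 9.24 to 291) and 46.9-fold higher in cs-WA (53 against 1, interval 8.05 to 1885), and WRKY61, its relative, 12.5-fold (77 against 6, interval 5.49 to 35.2) and 22.1-fold (25 against 1, interval 3.62 to 907). These intervals cover counting error only. WRKY43, a small IIc gene, had 0.935, 1.19 and 0.883 CPM in WT-A and 0, 0 and 0.0725 in cs-A, but 1.12, 0.783 and 0.618 in WT-WA and 0.814, 1.02 and 0.669 in cs-WA. It therefore separated the genotypes with 2,4-D alone (45.6-fold, 44 against 1 count, interval 7.78 to 1843, interaction adjusted p = 0.0051) and overlapped between them after wounding and 2,4-D (interaction adjusted p = 0.86). WRKY71, a gene of shoot branching, had 0, 0.0822 and 0 CPM in cs-M and 1.26, 0.192 and 0.520 in cs-WA (23.9-fold, 27 against 1 count, interval 3.93 to 977).

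Wounding on top of 2,4-D was compared directly. In cs 6 members (16.2%) were higher in cs-WA than in cs-A, namely WRKY61, WRKY6, WRKY43, WRKY31, WRKY29 and WRKY72, beside 4.30% of all genes, and none was lower (DESeq2 also 0, 1 member at an unadjusted p under 0.05, 0.156% of all genes). The rise of WRKY6 was 2.37 ± 0.42 (adjusted p = 0.00024), and that of WRKY29 was not called with only those 2 groups in the fit (3.03, adjusted p = 0.052). Without cs-WA replicate 1, the library with most members at their highest, 4 of the 6 calls were made, and WRKY61 (2.84, adjusted p = 0.075) and WRKY72 (2.05, adjusted p = 0.052) no longer passed. In WT 1 member, TTG2, was lower in WT-WA than in WT-A (-1.05 ± 0.19, adjusted p = 0.00043), beside 1.69% of all genes, and none was higher (DESeq2 0, 3 at an unadjusted p under 0.05, 0.502% of all genes). Without WT-WA replicate 2, 3 members were called in this comparison, and without WT-A replicate 2, 2.

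Wounding alone changed fewer members. In WT 9 members (24.3%) were higher and 1 (2.70%) lower than in mock, beside 4.84% and 2.75% of all genes. WRKY60, which forms complexes with WRKY18 and WRKY40, had 6.56, 13.7 and 12.3 CPM in WT-M and 31.8, 34.0 and 33.7 in WT-W (1.62 ± 0.24, adjusted p = 7.3e-06), with all 3 libraries above all of mock. WRKY71 had 0.232, 0.553 and 0.759 CPM in WT-M and 2.44, 3.22 and 1.53 in WT-W (2.19 ± 0.54, adjusted p = 0.0022), and WRKY51 had 11.4, 6.69 and 3.79 in WT-W (2.03 ± 0.43, adjusted p = 0.00047). WRKY38 reached 2.17, 1.77 and 1.53 CPM in WT-W, 20.8-fold above mock (80 against 4 counts, interval 7.80 to 78.0), far under its level with 2,4-D. WRKY54 (adjusted p = 0.071 without WT-M replicate 2) and WRKY62 (0.068 without WT-M replicate 2, 0.056 without WT-W replicate 1) were called less securely. With untreated and mock libraries together as control 5 members were called higher and none lower. WRKY38 was then not called (1.98, adjusted p = 0.0031), since untreated WT held up to 1.46 CPM of it. Without WT-W replicate 1, 8 members were called higher and 3 lower. The leaf mesophyll sum was 2209 to 3368 CPM in WT-W against 5461 to 6609 in WT-M, and its part in these values was not tested. In cs WRKY71 and WRKY72 were called higher (5.41% of members, 0.767% of all genes) and none lower (0 also with DESeq2 and at an unadjusted p under 0.05, 0.0379% of all genes), and without cs-M replicate 1 or cs-W replicate 3 no member was called. For WRKY71 the adjusted p was then 0.1 and 0.11, and for WRKY72 0.15 and 0.12.

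Group IIa, whose 3 members act together as repressors of basal defence and in abscisic acid signalling, rose in part. WRKY60 had 39.8, 37.9 and 44.7 CPM in WT-A and 31.8, 28.5 and 30.2 in WT-WA, against 4.39, 5.17 and 3.69 in cs-A and 8.07, 4.66 and 7.21 in cs-WA. It rose in all 3 WT treatments and was called in none of cs, with interactions of -2.88 ± 0.36 (adjusted p = 1.9e-07) for 2,4-D, -1.34 ± 0.35 (adjusted p = 0.0098) for wounding and -1.92 ± 0.35 (adjusted p = 5.8e-05) for both. WRKY40 had 19.5, 11.0 and 10.1 CPM in WT-M, 43.8, 55.4 and 41.6 in WT-A and 51.0, 47.1 and 38.9 in WT-WA. The WRKY40 groups did not overlap, but the calls (1.80 ± 0.77, adjusted p = 0.045, and 1.75 ± 0.77, adjusted p = 0.046) lay at the threshold and were lost without any of 5 libraries in each comparison, with adjusted p of 0.06 to 0.12 for WT-A and 0.057 to 0.12 for WT-WA. In WT-W it spread from 2.19 to 56.5 CPM. WRKY18 had 31.4, 67.7 and 28.8 CPM in WT-M and overlapped WT-A and WT-WA.

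In the opposite direction 5 members fell in WT with 2,4-D. TTG2, a group I gene of trichomes and seed coat, had 9.26, 10.8 and 10.4 CPM in WT-M, 2.45, 2.44 and 2.99 in WT-A, and 1.12, 1.30 and 1.36 in WT-WA, while WT-W stayed at 12.2, 13.9 and 12.7. In cs it had 4.76, 5.42 and 5.33 CPM in mock, 2.16, 3.74 and 3.69 in 2,4-D, and 2.59, 2.55 and 2.90 in the combined treatment. TTG2 fell without overlap in both genotypes after the combined treatment, from a lower start in cs to a higher end (WT-WA -3.00 ± 0.17, adjusted p = 6.6e-15; cs-WA -1.03 ± 0.17, adjusted p = 2.1e-05; interaction 1.98 ± 0.24, adjusted p = 1.1e-07). WRKY26, which acts with WRKY25 and WRKY33 in heat tolerance, had 7.49, 8.62 and 6.83 CPM in WT-M, 2.81, 1.71 and 3.12 in WT-A, and 3.91, 1.45 and 1.53 in WT-W (-1.60 ± 0.38, adjusted p = 0.00074, and -1.72 ± 0.39, adjusted p = 0.00087). Untreated WT had 2.18, 2.07, 2.73, 4.66 and 6.58 CPM of WRKY26, which overlapped these groups, and with mock and untreated libraries as control the falls of WRKY26 were no longer called (2,4-D -1.04, adjusted p = 0.02, but with overlapping libraries).

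WRKY22 and WRKY29 of group IIe, which act downstream of the kinase cascade triggered by bacterial flagellin, fell in WT and behaved otherwise in cs. WRKY22 had 6.18, 5.03 and 5.93 CPM in WT-M and 1.65, 1.32 and 1.77 in WT-A, and 1.07, 3.29 and 1.66 CPM in cs-M and 3.51, 3.33 and 3.19 in cs-A. It fell in WT (-1.85 ± 0.42, adjusted p = 0.00035), was not called in cs, and the responses differed by 2.57 ± 0.59 (adjusted p = 0.00075). Untreated WT had 1.77 to 4.10 CPM of WRKY22, which reaches WT-A, and with mock and untreated libraries as control its falls were no longer called (2,4-D -1.33, adjusted p = 0.0089; both treatments -1.04, adjusted p = 0.03). WRKY29 had 3.40, 2.76 and 2.62 CPM in WT-M and 0.527, 0.783 and 1.30 in WT-WA, and 0.284, 0.329 and 0.437 CPM in cs-M and 4.96, 0.766 and 2.16 in cs-WA. It was the member called in opposite directions in the 2 genotypes with the combined treatment (WT -1.74 ± 0.48, adjusted p = 0.0024; cs 2.81 ± 0.58, adjusted p = 0.00043; interaction 4.54 ± 0.76, adjusted p = 1.6e-05). With mock and untreated libraries as control the rise of WRKY29 in cs-WA was not called (2.92, adjusted p = 8.4e-07), since untreated cs reached 0.559 CPM, within 0.6 on the log2 scale of the lowest cs-WA library. Exons of WRKY29 are overlapped over 18.02% of their length by GH9B15 on the opposite strand, which had at most 1.55 CPM. WRKY42, a IIb regulator of phosphate transport, fell from 43 counts in WT-M to 6 in WT-WA, a ratio of 7.35 (interval 3.11 to 21.1), and had at most 0.297 CPM in the cs libraries.

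Calls were rare in group IId, the calmodulin-binding members known as negative regulators of basal defence. WRKY11 and WRKY7 kept group means of 32.8 to 50.2 and 30.8 to 52.5 CPM over all 10 groups. WRKY17 had group means of 11.4 to 28.3 CPM and WRKY15 of 21.2 to 79.6, WRKY15 being called in 1 comparison, lower in cs-M (18.3, 33.2 and 27.0 CPM) than in WT-M (58.2, 72.0 and 62.0; -1.25 ± 0.30, adjusted p = 0.0011). In all, 7 members were called in no comparison of 2 groups (WRKY7, WRKY8, WRKY11, WRKY17, WRKY28, WRKY30 and WRKY41). The share of all genes called in none was not computed.

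The genotypes were then compared within each condition, where the family was lower in cs. Untreated, 11 members (29.7%) were lower and 1 higher (WRKY23) in cs, beside 10.1% and 6.74% of all genes, with a median log2 fold change of -1.05 against 0.00. In mock 10 (27.0%) were lower and 1 higher (WRKY23), beside 11.9% and 9.43% (median -0.93). In 2,4-D 21 (56.8%) were lower and 1 higher (WRKY22), beside 16.9% and 15.2% (median -2.10), the call of WRKY22 (1.1 ± 0.42, adjusted p = 0.023) being lost without WT-A replicate 2 (adjusted p = 0.077) or cs-A replicate 1 (adjusted p = 0.05). In wounded apexes 8 (21.6%) were lower and none higher (DESeq2 0, 1 at an unadjusted p under 0.05), beside 10.6% and 7.27% (median -0.99), and in the combined treatment 18 (48.6%) lower and 1 higher (TTG2), beside 12.2% and 17.0% (median -1.51). The wounded count was 14 without cs-W replicate 3 and 7 without any of 3 other libraries. Of the 37 members, 9 were lower in cs in none of the 5 conditions (WRKY7, WRKY8, WRKY11, WRKY17, WRKY28, WRKY30, WRKY41, WRKY48 and WRKY72). The share of all genes lower in none of them was not computed.

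**Figure D4:**
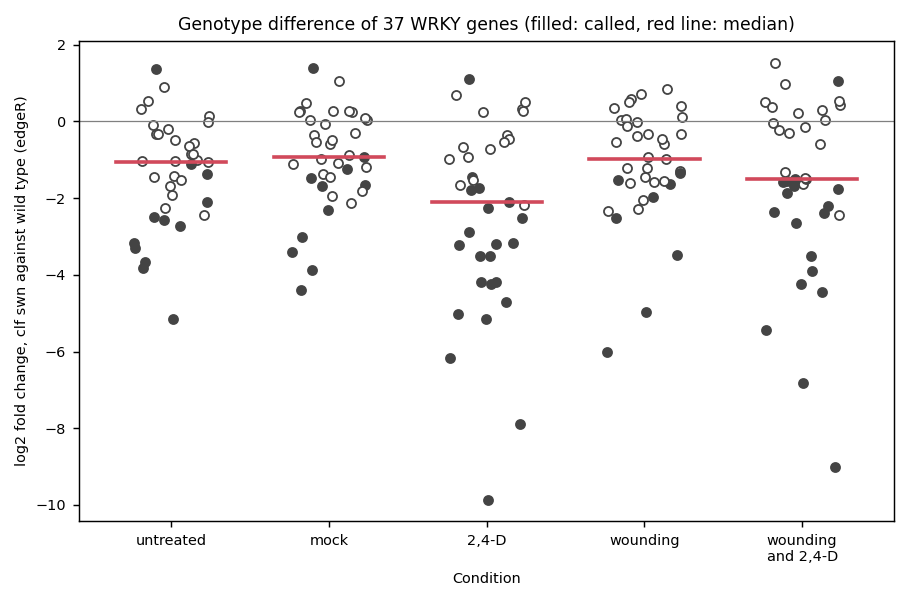
Log2 fold change of cs against WT (y axis, edgeR) of the 37 members in each of 5 conditions (x axis), filled where called, with the median as a red line at -1.05 untreated, -0.93 in mock, -2.10 in 2,4-D, -0.99 in wounding and -1.51 in the combined treatment. Filled points lie almost all under 0, with 1 above it in 4 of the conditions.

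WRKY26 was the sole member lower in cs in all 5 conditions, and its 17 WT libraries (1.45 to 8.62 CPM) lay above its 18 cs libraries (0.0725 to 0.666 CPM). The log2 fold change was -3.83 ± 0.38 (adjusted p = 6.8e-10) untreated and -4.40 ± 0.50 (adjusted p = 2.1e-08) in mock. WRKY29 was lower untreated (2.85, 3.47, 5.86, 3.78 and 4.24 CPM in WT, 0.0850 to 0.559 in cs with a median of 0.295; -3.66 ± 0.40, adjusted p = 5.5e-09). WRKY70 had 30.9, 48.4, 33.2, 28.3 and 69.9 CPM untreated in WT and 2.86 to 6.10 in cs, with a median of 3.98 (-3.31 ± 0.41, adjusted p = 5.3e-08), so that it was lower in cs before any treatment. In mock WRKY70 overlapped through cs-M replicate 2 and was not called (-1.11 ± 0.51, adjusted p = 0.076). WRKY75 was lower in cs-M (-2.32 ± 0.77, adjusted p = 0.014), but not without WT-M replicate 2 (adjusted p = 0.08) or cs-M replicate 2 (0.064). WRKY25, WRKY6, WRKY38 and WRKY54 were each lower in 4 conditions, and with 2,4-D or the combined treatment 17 members had all 6 WT libraries above all 18 cs libraries. The share of all genes with that separation was not computed, so the count of 17 cannot be set against it. Neither were the shares of all genes lower in cs in 4 or in all 5 conditions.

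The log2 response in cs minus that in WT was then tested directly, where a positive difference can also be a weaker fall in cs. For 2,4-D it was called for 13 members, negative for 11 (29.7%) and positive for 2 (5.41%), beside 20.8% and 23.9% of all genes. The 2 were TTG2, which fell by 1.95 in WT and by 0.71 in cs, and WRKY22. For the combined treatment 7 (18.9%) were negative and 6 (16.2%) positive, beside 20.8% and 24.4%, so that this count did not stand above that of all genes. Of the 6, TTG2, WRKY22, WRKY26, WRKY29 and WRKY42 were called lower in WT and WRKY29 and WRKY47 called higher in cs. For wounding 3 (8.11%) were negative and none positive (DESeq2 0, 3 at an unadjusted p under 0.05), beside 6.39% and 8.67%, and the count was 1 without WT-M replicate 1 and 5 without WT-W replicate 1. Of these 3, WRKY60 lost its call with only the groups compared in the fit (-1.36, adjusted p = 0.082). WRKY46 (-2.65 ± 0.92, adjusted p = 0.049) lost its call with the replicate number as a block (adjusted p = 0.058) and without any of 8 single libraries (adjusted p 0.059 to 0.22, the highest without cs-M replicate 2). WRKY23 (-0.90 ± 0.27, adjusted p = 0.022) lost it without WT-M replicate 1 or 3, WT-W replicate 1 or cs-M replicate 2 (adjusted p 0.051 to 0.066). WRKY31 for 2,4-D was lost without cs-M replicate 3 (-3.59, adjusted p = 0.18).

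Genes around the family moved in part. Of the 29 other WRKY genes tested, 5 were higher and 4 lower in WT-A and 5 and 6 in WT-WA, with medians of 0.06 and 0.05, so that their shares (17.2% and 13.8%, 17.2% and 20.7%) lay near those of all genes. Because the members were chosen with earlier results of these data known, their contrast with these genes may in part reflect that choice. The lists of kinases, partners and targets that follow were chosen in the same way. Their shares beside those of all genes may therefore also reflect the choice. Of 10 kinases and partner proteins that phosphorylate or bind WRKYs, none was higher in either WT treatment and MKS1, which links the kinase MPK4 to WRKY33, was lower in WT-A (-0.91 ± 0.26, adjusted p = 0.0037). In cs against WT with 2,4-D 5 of the 10 were lower, beside 16.9% of all genes (MKK4, MPK3, SIB1, SIB2 and JAV1), MPK3 with a log2 fold change of -1.20 ± 0.37 (adjusted p = 0.006). Among 8 genes known as WRKY targets in Arabidopsis, 5 (62.5%) were higher in WT-A and WT-WA (ICS1, PR1, FRK1, CYP71A13 and PAD3), beside 13.4% and 16.3% of all genes, and GL2, a trichome gene that TTG2 activates in the epidermis, was lower in both. PHO1, a phosphate exporter, had 70.9, 49.4 and 78.8 CPM in WT-M and 8.95, 14.4 and 14.3 in WT-WA (-2.40 ± 0.29, adjusted p = 2.5e-08), and 12, 7.48 and 10.1 CPM in cs-M and 34.5, 31.6 and 23.5 in cs-A (1.58 ± 0.30, adjusted p = 0.00023). PHO1 fell in WT-WA and rose in cs-A. The remaining target, the PHT1 gene AT5G43350, had 93, 76 and 65 counts in WT-M, 22, 32 and 51 in WT-A and 104, 51 and 128 in WT-WA. In cs it had 4, 1 and 7 counts in mock, 2, 4 and 2 in 2,4-D and 117, 105 and 105 in the combined treatment. PAD3, the last enzyme of camalexin synthesis, had 0.772, 1.16 and 2.83 CPM in WT-M and 106, 128 and 117 in WT-WA, and 1.14, 0.822 and 0.962 CPM in cs-M and 20.8, 11.5 and 9.81 in cs-WA. It rose without overlap in both genotypes (6.19 ± 0.72, adjusted p = 1.4e-08, and 3.75 ± 0.79, adjusted p = 0.00053). ICS1, the first enzyme of salicylic acid synthesis, had 10.1, 9.06 and 10.6 CPM in WT-M and 109, 139 and 98.7 in WT-WA (3.53 ± 0.20, adjusted p = 3.9e-15) and stayed between 7.66 and 16.8 CPM in the 18 cs libraries.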

How the data were processed

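RNA from 35 libraries of shoot meristem regions was sequenced. The authors trimmed reads with Trimmomatic 0.32, aligned them uniquely to TAIR10 with TopHat2 2.0.10 and counted them per gene with HTSeq, and the deposited values are whole-number counts, not normalized. The library kit does not mark strand, and the counting setting is not given in the sources used here. Depth was 11375703 to 18094983 counts per library, and intervals cover counting error only. Groups came from the sample labels.

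CPM was the count per 1000000 counted reads of the library. Counts of 28775 genes were tested with edgeR 4.0.16 (R 4.3.3, limma 3.58.1, TMM, default filter on low counts, 21115 genes kept) in 1 quasi-likelihood model of 10 groups, with Benjamini-Hochberg adjustment over all genes tested. A call needed an adjusted p under 0.05 and a log2 CPM ratio of at least 0.6 between every library of one group and every library of the other, with 0 set to 0.01 CPM. Interactions needed the adjusted p only. For low genes exact intervals of count ratios were computed. The fit recovered most of the changes planted in well counted genes of simulated data. That simulation held no batch and no library that stood apart. It therefore does not cover members with few counts or the libraries that stood apart here. The WRKY members and gene lists were chosen with earlier results of these data known. Full values are given for up to 3 called members per direction and comparison with a mean of at least 1 CPM in a group, and for WRKY33, WRKY40, WRKY70, WRKY75, TTG2, WRKY23, WRKY50, WRKY51 and WRKY59.

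Alternatives were DESeq2 1.42.0, its size factors, no filter, at least 10 counts in every library, a replicate block, only the groups compared, either part of the call rule alone, other controls and each library left out. The study's methods say that libraries of one replicate number were made and sequenced together, so the numbers mark a batch. Deviations from group means correlated with a median r of 0.046 in 182 pairs of the same number and of -0.026 in 364 other pairs. P-values measure the spread between these libraries, which may be partly technical. The names of the mock columns and the 2 sets of untreated libraries (C0 and C1) were read from the count table and the study's tables. The study's own read totals exchange the wounded replicate 2 libraries of the genotypes relative to the count table, whose CLF counts fit the column names, and both were left out in an alternative added after seeing the data. Another added alternative left out 3 libraries with high WRKY counts (WT-ctrl C1 replicate 2, WT-W replicate 1 and cs-M replicate 2). Promoters came from the RefSeq annotation of TAIR10.1, matched by gene identifier.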

Additional observations from a re-analysis of the deposited data

Results flagged for a closer look

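In 74 tests (37 members in each of the 2 groups of untreated libraries), 1 library lay far from the others of its group in 10, where chance flags about 1 in 20 tests. For WRKY61, WRKY38 and WRKY62 that library held 1 or 2 reads and the others 0, which is always picked out, so this rate does not apply to them. For WRKY71 that library held 2 reads and each of the others 1, so the rate does not apply there either. Untreated WT C1 replicate 2 was high for WRKY33 (97.9 CPM, the others 14.3 to 27.6), WRKY40 (40.9 CPM, the others 3.72 to 5.11) and WRKY46 (11.6 CPM, the others 0.791 to 3.48). In WT-ctrl C0 replicate 1 WRKY61 had 0.0838 CPM where the others had 0. In untreated cs, C0 replicate 1 was high for WRKY75 (0.709 CPM), C0 replicate 2 for WRKY38 (0.0621 CPM, the others 0), C0 replicate 3 for WRKY30 (1.19 CPM), C1 replicate 2 for WRKY15 (29.6 CPM), and C1 replicate 3 for WRKY71 and WRKY62 (0.135 CPM each).

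The response to treatment differed between genotypes by the interaction test for the following members, given as log2 response in cs minus that in WT. For 2,4-D the differences were -1.84 for WRKY6, -2.88 for WRKY60, -2.09 for WRKY54, -5.28 for WRKY43, -5.24 for WRKY46, -3.18 for WRKY23, -5.05 for WRKY70, -4.51 for WRKY31, -2.82 for WRKY75, -0.96 for WRKY50 and -4.98 for WRKY51, and 1.24 for TTG2 and 2.57 for WRKY22. For wounding they were -1.34 for WRKY60, -2.65 for WRKY46 and -0.90 for WRKY23. For the combined treatment they were -1.92 for WRKY60, -2.41 for WRKY54, -4.96 for WRKY46, -3.26 for WRKY23, -4.34 for WRKY70, -1.63 for WRKY50 and -4.70 for WRKY51, and 1.98 for TTG2, 2.44 for WRKY22, 1.17 for WRKY47, 3.90 for WRKY42, 4.54 for WRKY29 and 2.03 for WRKY26. Of these, WRKY26 lost its call without WT-WA replicate 2, cs-M replicate 1 or cs-WA replicate 1 (adjusted p 0.051 to 0.061). The values of WRKY43, WRKY31 and WRKY42 rest on few cs counts, so their size depends on the fit. WRKY43 had 4 counts in cs-M and 1 in cs-A, and WRKY31 3 and 4. WRKY42 had 3 counts in cs-M and 2, 2 and 4 in the cs-WA libraries.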

How the results depend on the processing

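Of 178 called results of single members, 142 kept their call under every alternative that tested them and none changed direction, over 2524 repeats of which 88 lost the call. Counts of members called moved as follows, the causes not being tested beyond the alternatives' construction. With at least 10 counts in every library, which kept 16372 genes and removes low members, 72 of the 178 called results could still be tested. All 72 kept their call. The counts of members called were then 8 in WT-A, 1 in WT-W, 9 in WT-WA, 0 in cs-W and 4 in cs-WA against mock, 5 untreated, 5 in mock, 9 in 2,4-D, 2 in wounding and 9 in both for cs against WT, 0 for WT mock against untreated, 1 for cs-WA against cs-A, and 7 for the interactions with 2,4-D and with both. With only the groups compared they were 6 in WT-W, 0 in cs-W, 5 in cs-WA, 0 for WT mock against untreated, 2 for cs-WA against cs-A and 1 for the wounding interaction. With mock and untreated libraries as control they were 5 in WT-W, 1 in cs-A and 4 in cs-W. By adjusted p alone they were 7 in cs-A, 24 untreated and 18 in wounding for cs against WT, 2 and 1 for mock against untreated in WT and cs, and 3 for WT-WA against WT-A, and with a fold change of 0.6 added 7, 22, 16, 2, 1 and 3. Without the 3 libraries with high WRKY counts they were 4 in cs-A, 1 in cs-W, 3 for WT mock against untreated and 5 for the wounding interaction. With only C0 untreated libraries 4 members were called for WT mock against untreated, and without both wounded replicate 2 libraries 1 for the wounding interaction. With the replicate block 1 call was lost, that of WRKY46 in the wounding interaction (-2.60, adjusted p = 0.058), which left 2, and no other call changed.

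Leaving out 1 library at a time gave 20 to 24 members in WT-A, 9 to 12 in WT-W, 22 to 26 in WT-WA, 2 to 6 in cs-A, 0 to 3 in cs-W and 10 to 13 in cs-WA. For cs against WT it gave 12 to 13 untreated, 11 to 12 in mock, 21 to 25 in 2,4-D, 7 to 14 in wounding and 19 to 23 in both. For mock against untreated it gave 1 to 2 in WT and 0 to 1 in cs, for WT-WA against WT-A 1 to 3, for cs-WA against cs-A 4 to 7, and for the interactions 11 to 14 (2,4-D), 1 to 5 (wounding) and 12 to 13 (both). Depth limits the members under about 0.264 CPM, which is 3 counts in the shallowest library.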
